A study of Homo sapiens with 27 samples.

Results

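The interferon response and class I antigen presentation genes described here are 47 genes chosen by name, of 41686 genes read in a table of 6 total RNA libraries and 34742 read in a table of 11 poly(A) RNA libraries. They were chosen with earlier results of these data known, so their counts beside those of all genes are no independent test. The members were found by matching each table's Ensembl gene IDs to the 47 symbols, and those whose mean over a table's libraries reached 10 normalized counts were tested there. All 47 members were read from the total RNA table, where 41 reached that mean. From the poly(A) data 46 were read, without HLA-F, which was not analysed there, and 37 reached the mean. Those 37 were also among the 41, and 6 members reached the mean in neither table.

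All libraries came from SHP77, an established human small cell lung cancer line, and the study asked what the circular RNA circRMST and the lineage transcription factors SOX2 and NKX2-1 do in it. In the shRNA arm, cells carried circRMST shRNA 1 (n = 2), circRMST shRNA 2 (n = 2) or, as control, shGFP (n = 2), delivered by lentivirus and kept under 3 ug/ml puromycin for 3 days or longer. In the siRNA arm, cells were harvested 72 hours after RNAiMAX transfection of SOX2 siRNA 1, SOX2 siRNA 2, NKX2-1 siRNA 1 or NKX2-1 siRNA 2 (n = 2 each) or of a control siRNA, si-control (n = 3). The series describes the replicates as biological; with 1 cell line they measure the spread between cultures of that line, and no cells treated with interferon were among the groups.

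Interferons signal through cell surface receptors and JAK kinases to STAT and IRF transcription factors, which bind short DNA elements, the interferon-stimulated response element (ISRE) and the gamma-activated site (GAS), near antiviral genes. Many of these genes keep a basal level without added interferon. The class I pathway shares part of this control: the immunoproteasome cuts proteins into peptides, the TAP transporter moves them into the endoplasmic reticulum, ERAP enzymes trim them, and tapasin loads them onto heavy chains paired with beta-2 microglobulin. Small cell lung cancers of the neuroendocrine kind are known for low class I antigen presentation.

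The levels below are normalized counts, that is, reads per gene divided by a library's size factor, and they are compared between libraries and not between genes. Log2 changes are on the scale of log2(normalized count + 1), with the knockdown minus its control. Adjusted p-values are limma's with Benjamini-Hochberg adjustment over all genes tested in a table and a threshold of 0.05. The 6 total RNA libraries held 46850327 to 57352596 reads on genes and the 11 poly(A) libraries 15486869 to 50098797. Mitochondrial genes held 46.5% and 47.6% of the normalized counts in the shGFP libraries and 48.4% to 51.5% in the circRMST shRNA libraries. Their share in the poly(A) libraries was 6.90% to 10.3%. SOX2 had 389 to 466 normalized counts in the 4 SOX2 siRNA libraries, against 1084 to 1191 in the 3 si-control libraries. NKX2-1 had 796 to 1070.0 in the 4 NKX2-1 siRNA libraries, against 2145 to 2357 in si-control. In the same NKX2-1 siRNA libraries SOX2 stood at 2098 to 2285, above every si-control library. NKX2-1 stood at 2446 to 2764 in the 4 SOX2 siRNA libraries, also above every si-control library. In the 4 circRMST shRNA libraries SOX2 was at 2236 to 2723, against 1997 to 2229 with shGFP. NKX2-1 was at 881 to 1385 there, against 1419 to 1485 with shGFP. The row of RMST counts its linear and circular RNA together and does not check the circRMST shRNAs. Leukocyte markers summed to 67.9 or less in every siRNA library, and PTPRC, the pan-leukocyte gene, had at most 1 normalized count there. Endothelial markers, almost all of them PECAM1 reads, summed to 75.1 to 136 in SOX2 siRNA libraries, against 341 to 354 in si-control, while KDR had no read in any of them. Fibroblast markers, mostly LUM, summed to 219 to 291 in SOX2 siRNA libraries, against 84.9 to 116 in si-control. Their part in the results was not tested. Within cultures of 1 cell line, bulk RNA cannot tell fewer cells with such a gene's RNA from less of it per cell.

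Of the 47 members, 40 had a promoter window in RefSeq's table for GRCh38.p14 (250 bases before to 50 bases after the annotated start, the first window where a gene had several). The letters searched for the ISRE core, GAAA followed after any 2 bases by GAAA, on either strand, stood in 25 of these 40 windows, 62.5%, against 996 of 27305 RefSeq windows of the same length, 3.65%. The share was 2.63% of the 11630 windows of genes tested in the poly(A) table. The GAS letters TTCNNNGAA stood in 7 of 40 (17.5%, against 7.88% of all windows and 6.39% of those of tested genes). CATTGT, the core letters bound by SOX proteins, stood in 2 of 40 (5.0%, against 11.0% and 6.21%), and CAAGTG, the core of NK2 homeodomain sites, in 7 of 40 (17.5%, against 11.5% and 8.62%). Motifs that overlap were counted once per window, and a match describes letters and not binding. The 160 bases before the start are printed for the 6 members with the largest change in SOX2 knockdown, described below, whose ISRE cores lie within that stretch, so that the element can be read in place. The lines run 5′ to 3′ along the gene's strand, and capitals mark the ISRE core, with overlapping matches as 1 run.
IFIH1, chr2:162318685-162318844, minus strand: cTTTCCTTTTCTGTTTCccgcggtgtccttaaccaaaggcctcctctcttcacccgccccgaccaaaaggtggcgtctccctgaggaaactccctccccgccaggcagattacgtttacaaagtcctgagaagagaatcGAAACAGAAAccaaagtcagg
TAP1, chr6:32853705-32853864, minus strand: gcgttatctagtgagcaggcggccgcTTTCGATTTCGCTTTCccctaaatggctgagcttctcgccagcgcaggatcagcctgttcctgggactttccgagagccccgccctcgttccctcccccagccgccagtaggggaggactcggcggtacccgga
OAS3, chr12:112938314-112938473, plus strand: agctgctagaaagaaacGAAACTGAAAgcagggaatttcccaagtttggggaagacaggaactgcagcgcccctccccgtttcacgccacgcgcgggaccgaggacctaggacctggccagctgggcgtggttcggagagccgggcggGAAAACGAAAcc
IFIT1, chr10:89392463-89392622, plus strand: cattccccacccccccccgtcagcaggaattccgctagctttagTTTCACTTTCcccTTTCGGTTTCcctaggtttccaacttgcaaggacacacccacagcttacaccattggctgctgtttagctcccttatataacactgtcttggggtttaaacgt
PARP14, chr3:122680679-122680838, plus strand: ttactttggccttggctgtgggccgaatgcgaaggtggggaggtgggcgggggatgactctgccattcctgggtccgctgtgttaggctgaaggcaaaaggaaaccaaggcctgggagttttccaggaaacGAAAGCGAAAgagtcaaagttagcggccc
TAP2, chr6:32838740-32838899, minus strand: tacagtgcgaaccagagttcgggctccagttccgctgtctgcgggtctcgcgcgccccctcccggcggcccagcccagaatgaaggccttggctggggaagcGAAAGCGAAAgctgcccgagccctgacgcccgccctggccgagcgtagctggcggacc
In TAP1 and IFIH1 neighbouring cores overlap, as TTTCGATTTCGCTTTC and TTTCCTTTTCTGTTTC, and PARP14 and TAP2 hold the same core, GAAAGCGAAA. OAS3 holds a core at either end of its stretch, and in IFIT1 a pair of cores stand 3 bases apart. Of 20 tested members with an ISRE core in the window, 17 were lower in SOX2 knockdown (median log2 change -0.67), as were 10 of 12 without one (median -0.69), OAS1 and PSMB9 among these. The window of PSMB9 does not reach the TAP1 cores printed above, which lie between the starts of both genes. In NKX2-1 knockdown 13 of 20 with a core were lower (median -0.26), and 5 of 12 without one (median -0.13). In circRMST knockdown 10 of 23 with a core were higher and 2 lower, and of 13 without one 4 were higher and 3 lower. These differences were not tested.

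Knockdown of SOX2 lowered most of the module, whose members were chosen with earlier results of these data known. Of 37 members tested, 30 were lower, 0 were higher and 7 did not pass, while of all 16750 genes tested 28.7% were lower and 27.6% higher. The members' median log2 change was -0.66, beside 0.0071 over all genes. With both siRNAs, each tested on its own, 25 of the 37 were lower (19.3% of all genes), and the 4 SOX2 siRNA libraries lay below all 3 si-control libraries for 29 (25% of all genes). No member was higher under any alternative setting tried, and the number lower ranged over 27 to 31.

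**Figure D1:**
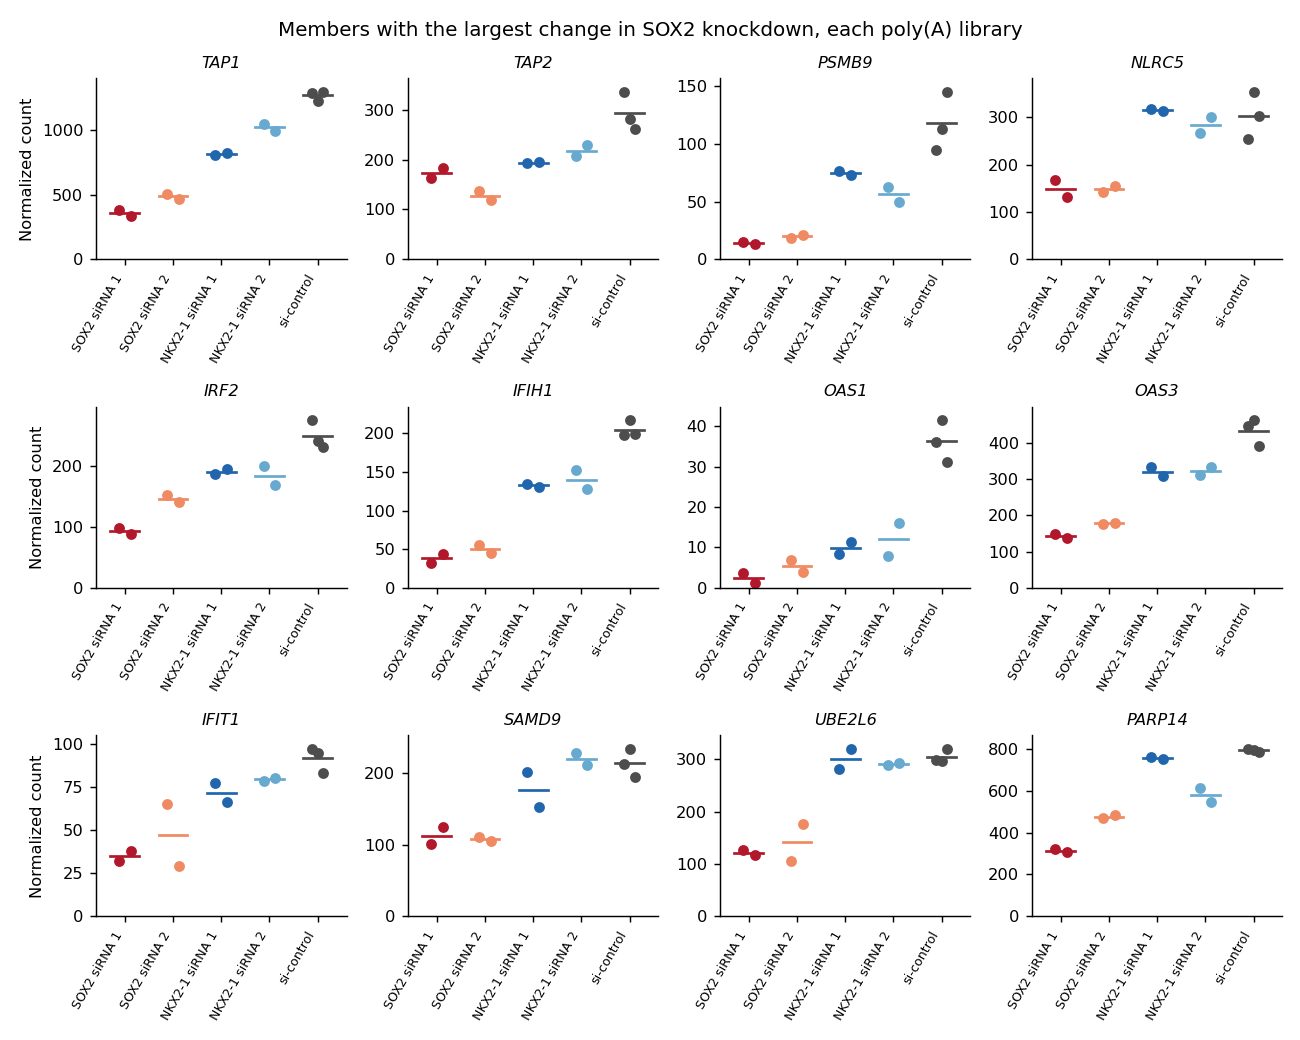
Normalized counts (y axis, from 0) of the 12 members with the largest change in SOX2 knockdown among those lower with each siRNA, in the libraries of SOX2 siRNA 1, SOX2 siRNA 2, NKX2-1 siRNA 1, NKX2-1 siRNA 2 and si-control (x axis). Points are libraries and bars group means; every SOX2 siRNA library lies below every si-control library, and TAP1 is at 335 to 508 with SOX2 siRNAs, against 1227 to 1298 in si-control.

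In class I antigen presentation the falls reached peptide production, transport, trimming and loading. TAP1, a subunit of the peptide transporter, had 381 and 335 normalized counts with SOX2 siRNA 1 and 508 and 469.8 with SOX2 siRNA 2, against 1288, 1227 and 1298 in the si-control libraries (3.04-fold, log2 change -1.60, SE 0.057, adjusted p = 1.46e-18). TAP2, its partner subunit, had 162 and 184 normalized counts with SOX2 siRNA 1 and 137 and 118 with SOX2 siRNA 2, against 336, 282 and 262 in the si-control libraries (log2 change -0.97, SE 0.10, adjusted p = 6.34e-09). For both genes the highest knockdown library lay well below the lowest control library. TAPBP, tapasin, which holds the transporter next to empty class I molecules, had 891 and 865 normalized counts with SOX2 siRNA 1 and 1104 and 1123 with SOX2 siRNA 2, against 1587, 1685 and 1725 in the si-control libraries (log2 change -0.75, SE 0.048, adjusted p = 2.69e-13), again with no overlap. TAPBPL, a tapasin-related peptide editor, fell least of the 4 (-0.39, SE 0.14, adjusted p = 0.0194): SOX2 siRNA 2 did not pass alone for it, and it lost its call under 6 of the alternatives, among them quantile normalization, DESeq2 and a fit without si-control replicate 2.

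PSMB9, an immunoproteasome catalytic subunit, fell most in the class I pathway, with 14.9 and 13.5 normalized counts with SOX2 siRNA 1 and 18.7 and 21.5 with SOX2 siRNA 2, against 94.8, 113 and 145 in the si-control libraries (6.54-fold, log2 change -2.71, SE 0.19, adjusted p = 3.03e-12). No SOX2 siRNA library came near the si-control range. Its start lies 488 bases from that of TAP1, on the opposite strand, and TAP2, PSMB8, TAP1 and PSMB9 together span 38021 bases of chromosome 6. PSMB8, another immunoproteasome subunit, had 136 and 156 normalized counts with SOX2 siRNA 1 and 187 and 152 with SOX2 siRNA 2, against 292, 285 and 285 in the si-control libraries (log2 change -0.87, SE 0.10, adjusted p = 2.45e-08). PSMB10, the third, was at 18.5 to 25.9 in SOX2 siRNA libraries, against 12.2 to 24.0 in si-control, groups that overlapped (log2 change 0.38, adjusted p = 0.304). The constitutive catalytic subunits that these replace went the other way, each higher with both siRNAs: PSMB6 averaged 5591 normalized counts with SOX2 siRNAs and 4293 in si-control (log2 change 0.38, SE 0.033), and PSMB5 and PSMB7 changed by 0.28 and 0.33 (adjusted p = 3.46e-08 and 1.89e-09). PSME1 and PSME2, the interferon-inducible activator of the proteasome, averaged 1351 with SOX2 siRNAs and 2286 in si-control for PSME1 (log2 change -0.78, SE 0.043, adjusted p = 1.44e-14) and 2273 with SOX2 siRNAs and 3088 in si-control for PSME2 (-0.45, SE 0.037, adjusted p = 4.11e-11).

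**Figure D2:**
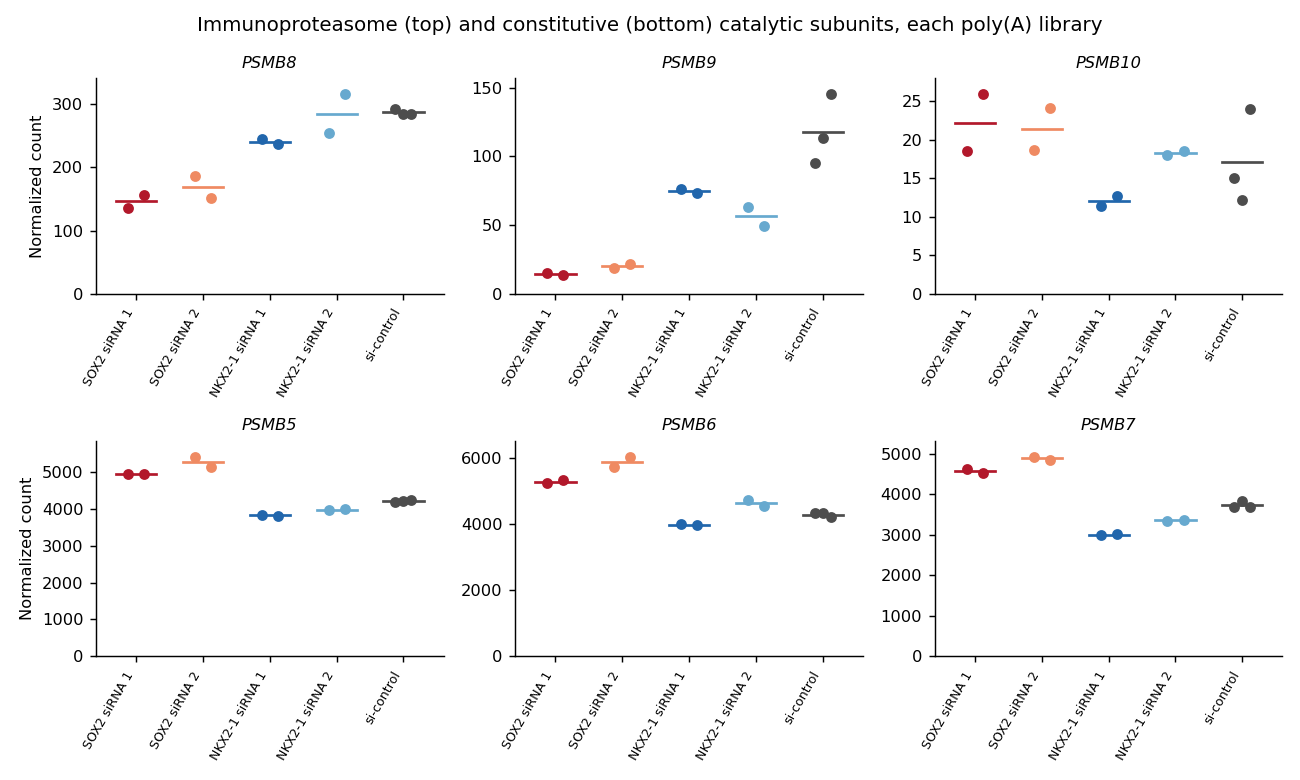
Normalized counts (y axis, from 0) of the immunoproteasome subunits PSMB8, PSMB9 and PSMB10 (top) and the constitutive subunits PSMB5, PSMB6 and PSMB7 (bottom) in the SOX2 siRNA, NKX2-1 siRNA and si-control libraries (x axis); points are libraries and bars group means. In SOX2 siRNA libraries PSMB8 and PSMB9 lie below all si-control libraries, while PSMB5, PSMB6 and PSMB7 lie above them.

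Both peptide trimming enzymes and the light chain were lower as well. ERAP1, an aminopeptidase of the endoplasmic reticulum, had 191 and 188 normalized counts with SOX2 siRNA 1 and 279 and 219 with SOX2 siRNA 2, against 327, 302 and 316 in the si-control libraries (log2 change -0.54, SE 0.09, adjusted p = 1.15e-05). Its relative ERAP2 was at 13.5 to 29.2 in the SOX2 siRNA libraries, against 33.7 to 45.1 in si-control (log2 change -0.91, SE 0.23, adjusted p = 0.0012), and passed with SOX2 siRNA 1 but not with SOX2 siRNA 2 alone. The 2 genes overlap on opposite strands. The poly(A) kit does not mark strand, so reads from the overlap cannot be assigned to either with certainty. B2M, beta-2 microglobulin, had 4565 and 4949 normalized counts with SOX2 siRNA 1 and 5404 and 5467 with SOX2 siRNA 2, against 6800.0, 6598 and 6601 in the si-control libraries, a fall of 1.31-fold (log2 change -0.39, SE 0.035, adjusted p = 3.22e-10). The heavy chain genes HLA-B, HLA-C and HLA-E stayed under the mean of 10 and were not tested. HLA-C had 3.50 to 6.71 normalized counts in SOX2 siRNA libraries, 2.83 to 12.3 in NKX2-1 siRNA libraries and 9.87 to 13.7 in si-control, HLA-E at most 6.09 and HLA-B at most 2.46 in any of the 11 libraries. Heavy chain genes are similar to each other and differ between people. How reads that match several of them were counted is not given, so their levels are uncertain.

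Among the transcription regulators, NLRC5, a co-activator of class I genes, had 167 and 132 normalized counts with SOX2 siRNA 1 and 142 and 154 with SOX2 siRNA 2, against 255, 353 and 302 in the si-control libraries (2.02-fold, log2 change -1.01, SE 0.11, adjusted p = 5.16e-09). IRF2, which binds the ISRE and is known both as a repressor and as an activator of class I genes, had 98.2 and 88.7 normalized counts with SOX2 siRNA 1 and 153 and 141 with SOX2 siRNA 2, against 276, 243 and 231 in the si-control libraries (2.12-fold, log2 change -1.08, SE 0.11, adjusted p = 1.45e-09). IRF1, the interferon-induced activator, had 350.2 and 303 normalized counts with SOX2 siRNA 1 and 304 and 327 with SOX2 siRNA 2, against 495, 480.1 and 489 in the si-control libraries (log2 change -0.61, SE 0.074, adjusted p = 7.29e-08). In none of the 3 genes did knockdown and control libraries overlap. STAT2, a subunit of the factor that carries type I interferon signals to the nucleus, fell by less, to 591 to 682 with SOX2 siRNAs, against 774 to 874 in si-control (log2 change -0.34, SE 0.062, adjusted p = 4.16e-05). IRF9, its DNA-binding partner, was at 10.7 to 25.9 with SOX2 siRNAs, against 14.1 to 19.5 in si-control, and IRF7, which amplifies interferon gene transcription, at 51.4 to 75.4, against 57.8 to 84.9; both overlapped and neither passed (adjusted p = 0.861 and 0.985).

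Sensors and enzymes that act on foreign RNA held some of the largest falls. OAS1, which makes the oligoadenylates that switch on RNase L, had 3.56 and 1.23 normalized counts with SOX2 siRNA 1 and 7.01 and 4.03 with SOX2 siRNA 2, against 36.2, 41.4 and 31.0 in the si-control libraries (log2 change -3.04, SE 0.40, adjusted p = 2.30e-07). At these low counts the fold depends on the added 1. IFIH1, the sensor MDA5 for long double-stranded RNA, had 32.0 and 44.3 normalized counts with SOX2 siRNA 1 and 54.9 and 45.6 with SOX2 siRNA 2, against 198, 217 and 199 in the si-control libraries (4.62-fold, log2 change -2.21, SE 0.14, adjusted p = 2.15e-13). OAS3, a larger oligoadenylate synthetase, had 149 and 137 normalized counts with SOX2 siRNA 1 and 175 and 179.8 with SOX2 siRNA 2, against 447, 462 and 390.4 in the si-control libraries (2.70-fold, log2 change -1.43, SE 0.086, adjusted p = 6.55e-14). In each of these 3 genes the lowest control library exceeded the highest knockdown library at least 2-fold. EIF2AK2, the kinase PKR, fell to 1171 to 1401 with SOX2 siRNAs, against 1617 to 1734 in si-control (log2 change -0.37, SE 0.046, adjusted p = 1.18e-07). ISG20, an exonuclease, was at 560.4 to 659.8 with SOX2 siRNAs, against 671 to 792 in si-control (log2 change -0.26, SE 0.075, adjusted p = 0.00434), and did not pass with the replicate block or with no filter on the mean. DDX60, a helicase, overlapped and did not pass (log2 change -0.33, adjusted p = 0.253), and OAS2 had reads in 1 si-control library and in no other, and was not tested.

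In the IFIT family, whose proteins bind viral RNA ends, IFIT1 had 32.0 and 38.2 normalized counts with SOX2 siRNA 1 and 65.4 and 29.5 with SOX2 siRNA 2, against 97.3, 95.1 and 83.2 in the si-control libraries (2.30-fold, log2 change -1.20, SE 0.20, adjusted p = 9.73e-06). All 4 knockdown libraries were lower than every control library, with the 2 SOX2 siRNA 2 libraries far apart. IFIT2 stood at the threshold and did not pass (log2 change -0.60, SE 0.26, adjusted p = 0.05), with 14.8 to 22.2 in SOX2 siRNA libraries, against 23.2 to 29.6 in si-control. IFIT5 did not pass (-0.14, adjusted p = 0.177), and IFIT3 was under the mean of 10. Of the other antiviral genes, SAMD9, a restriction factor of poxviruses, had 101 and 124 normalized counts with SOX2 siRNA 1 and 111 and 105 with SOX2 siRNA 2, against 213, 234 and 195 in the si-control libraries (log2 change -0.95, SE 0.12, adjusted p = 8.48e-08). IFI6, an inhibitor of flavivirus replication, was at 384 to 468 with SOX2 siRNAs, against 786 to 822 in si-control (log2 change -0.88, SE 0.059, adjusted p = 8.41e-13). BST2, tetherin, which holds budding virus at the cell surface, was at 1426 to 1909, against 2802 to 3043 in si-control (log2 change -0.82, SE 0.041, adjusted p = 1.94e-15). IFI35 passed only narrowly (log2 change -0.66, SE 0.25, adjusted p = 0.0263) with overlapping groups, and lost its call under 6 alternatives.

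In the ISG15 system, UBE2L6, the conjugating enzyme that attaches the ubiquitin-like protein ISG15, had 127 and 117 normalized counts with SOX2 siRNA 1 and 105 and 177 with SOX2 siRNA 2, against 299.5, 296 and 319.9 in the si-control libraries (2.36-fold, log2 change -1.24, SE 0.12, adjusted p = 1.14e-09). ISG15 itself had 632 and 556 normalized counts with SOX2 siRNA 1 and 582 and 604 with SOX2 siRNA 2, against 865, 897 and 929 in the si-control libraries (log2 change -0.60, SE 0.057, adjusted p = 9.47e-10). Both were lower in every knockdown library. USP18, which removes ISG15 and dampens receptor signalling, differed little, at 918 to 1061 with SOX2 siRNAs, against 1054 to 1191 in si-control (log2 change -0.17, SE 0.05, adjusted p = 0.0048), and without si-control replicate 2 it did not pass (adjusted p = 0.0578). HERC6 did not pass (adjusted p = 0.892), and TRIM21, an antibody receptor and ubiquitin ligase, passed (-0.36, SE 0.11, adjusted p = 0.00817) but not with the replicate block, quantile normalization or without si-control replicate 3. PARP14, an ADP-ribosyltransferase, had 319.6 and 305 normalized counts with SOX2 siRNA 1 and 468 and 482 with SOX2 siRNA 2, against 799.9, 796 and 785 in the si-control libraries (2.06-fold, log2 change -1.04, SE 0.06, adjusted p = 3.52e-14). The partners PARP9 and DTX3L, which act as a complex and overlap by 447 bases at their starts, changed by -0.73, SE 0.10 and -0.45, SE 0.066 (adjusted p = 9.97e-07 and 1.63e-06), and were lower in all 4 knockdown libraries.

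**Figure D3:**
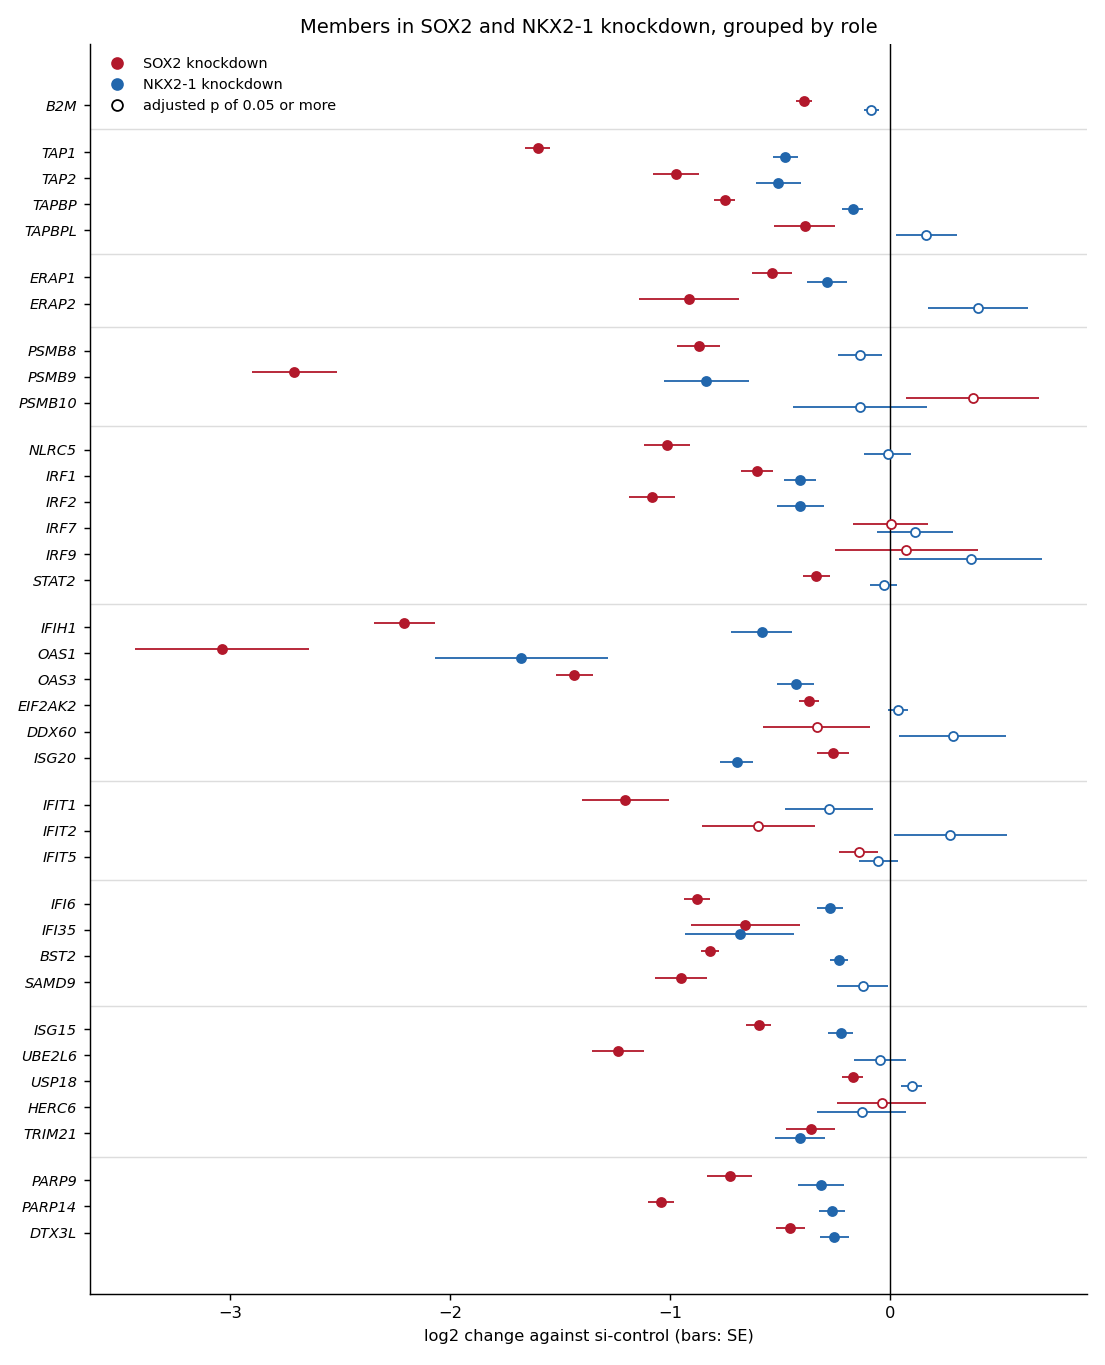
Log2 change against si-control (x axis; bars are SE) of the 37 members tested in the poly(A) table, grouped by role down the page, with SOX2 knockdown (red) above NKX2-1 knockdown (blue) in each row. Filled points passed at an adjusted p of 0.05; 30 SOX2 points and 19 NKX2-1 points are filled, all of them below 0.

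Knockdown of NKX2-1 lowered fewer members and by less. Of 37 tested, 19 were lower, 0 higher and 18 did not pass, against 21.4% of all genes lower and 18.5% higher. The median log2 change was -0.22 for the members and -0.0043 for all genes. With both NKX2-1 siRNAs, each tested on its own, 11 members were lower (10.2% of all genes), and for 16 members (18% of all genes) all 4 NKX2-1 siRNA libraries lay below si-control. With equal totals or quantile normalization 1 member, USP18, was higher. The comparison shares its 3 si-control libraries with that of SOX2.

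OAS1 had 8.49 and 11.4 normalized counts with NKX2-1 siRNA 1 and 7.89 and 16.0 with NKX2-1 siRNA 2, against 36.2, 41.4 and 31.0 in si-control (log2 change -1.68, SE 0.40, adjusted p = 0.00121). PSMB9 had 76.4 and 73.2 normalized counts with NKX2-1 siRNA 1 and 63.1 and 49.4 with NKX2-1 siRNA 2, against 94.8, 113 and 145 in si-control (1.78-fold, log2 change -0.83, SE 0.19, adjusted p = 0.00106). ISG20 had 459 and 418 normalized counts with NKX2-1 siRNA 1 and 419 and 528 with NKX2-1 siRNA 2, against 751, 671 and 792 in si-control (1.62-fold, log2 change -0.70, SE 0.075, adjusted p = 1.84e-08). The groups did not overlap in any of the 3. IFIH1 had 135 and 131 normalized counts with NKX2-1 siRNA 1 and 152 and 128 with NKX2-1 siRNA 2, against 198, 217 and 199 in si-control (log2 change -0.58, SE 0.14, adjusted p = 0.00138). TAP2 had 193 and 194 normalized counts with NKX2-1 siRNA 1 and 206 and 228 with NKX2-1 siRNA 2, against 336, 282 and 262 in si-control (log2 change -0.51, SE 0.10, adjusted p = 0.000257). TAP1 had 806 and 821 normalized counts with NKX2-1 siRNA 1 and 1053 and 997 with NKX2-1 siRNA 2, against 1288, 1227 and 1298 in si-control (log2 change -0.48, SE 0.057, adjusted p = 1.50e-07). In OAS1, PSMB9, IFIH1, TAP2 and TAP1 the NKX2-1 siRNA libraries sat between the SOX2 siRNA libraries and si-control, with no overlap on either side. In OAS1 and TAP2 the gap to the SOX2 siRNA libraries was narrow. In ISG20 the NKX2-1 siRNA libraries lay below the SOX2 siRNA libraries. OAS3 (log2 change -0.43, SE 0.086), IRF1 (-0.41, SE 0.074), IRF2 (-0.41, SE 0.11), TRIM21 (-0.41, SE 0.11) and IFI6 (-0.27, SE 0.059) were lower with each siRNA as well (adjusted p = 0.000208, 5.72e-05, 0.003, 0.00499 and 0.000476), TRIM21 not with the replicate block or without si-control replicate 3. IFI35 (-0.68, SE 0.25, adjusted p = 0.03) lost its call under 5 alternatives and PARP9 (-0.31, SE 0.10, adjusted p = 0.0177) under 7. NLRC5, at 267 to 318 with NKX2-1 siRNAs, against 255 to 353 in si-control, and UBE2L6, at 281 to 320.1, against 296 to 319.9, overlapped with their controls (log2 change -0.0092 and -0.045, adjusted p = 0.954 and 0.797).

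B2M moved in opposite directions with the 2 NKX2-1 siRNAs. It had 5739 and 5239.6 normalized counts with NKX2-1 siRNA 1 and 7195 and 7221 with NKX2-1 siRNA 2, against 6800.0, 6598 and 6601 in si-control. Every NKX2-1 siRNA 1 library lay below, and every NKX2-1 siRNA 2 library above, all si-control libraries (log2 change -0.28, SE 0.042, adjusted p = 4.88e-06 with siRNA 1 and 0.11, SE 0.042, adjusted p = 0.0403 with siRNA 2), and the average did not pass (-0.084, SE 0.035, adjusted p = 0.0594). Between the NKX2-1 siRNAs, 3 of 37 members were higher and 6 lower with siRNA 1 than with siRNA 2, against 11.7% and 14.8% of all genes. PARP14 (log2 difference 0.39, SE 0.079), DTX3L (0.45, SE 0.087) and PARP9 (0.38, SE 0.14) were higher with siRNA 1, PARP9 not in 5 of the alternatives. B2M (-0.39, SE 0.046), TAPBP (-0.34, SE 0.063), TAP1 (-0.33, SE 0.075), ISG15 (-0.29, SE 0.075), BST2 (-0.29, SE 0.054) and USP18 (-0.18, SE 0.065) were lower with siRNA 1, USP18 not in 12 of the alternatives.

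Between the SOX2 siRNAs, 1 member, TAP2 (log2 difference 0.44, SE 0.14), was higher and 10 were lower with siRNA 1 than with siRNA 2, against 8.08% and 10.4% of all genes. The largest of the 10 were IFI35 (-1.01, SE 0.33, adjusted p = 0.0287), IRF2 (-0.65, SE 0.14, adjusted p = 0.00126), PARP14 (-0.60, SE 0.079, adjusted p = 1.84e-06), PARP9 (-0.49, SE 0.14, adjusted p = 0.0102) and TAP1 (-0.45, SE 0.075, adjusted p = 7.06e-05). TAP2, IFI35 and PARP9 did not pass in some fits, while IRF2, PARP14 and TAP1 passed in every one. For IRF2, PARP14 and TAP1 both siRNAs still lay below si-control.

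The direct test between the knockdowns found 29 of 37 members lower in SOX2 than in NKX2-1 knockdown and 1 higher, against 28% and 27.9% of all genes, with a median difference of -0.55. PSMB9 averaged 17.2 normalized counts with SOX2 siRNAs and 65.5 with NKX2-1 siRNAs (log2 difference -1.87, SE 0.18, adjusted p = 9.91e-10). IFIH1 averaged 44.2 with SOX2 siRNAs and 137 with NKX2-1 siRNAs (-1.63, SE 0.13, adjusted p = 2.46e-11). ERAP2 averaged 21.2 with SOX2 siRNAs and 52.9 with NKX2-1 siRNAs (-1.31, SE 0.21, adjusted p = 6.17e-06), with the NKX2-1 siRNA libraries at 42.0 to 63.1 and si-control at 33.7 to 45.1. OAS1 (-1.36, SE 0.37, adjusted p = 0.00243) and UBE2L6 (-1.19, SE 0.11, adjusted p = 5.60e-10) completed the 5 largest. ISG20 was the exception, higher in SOX2 than in NKX2-1 knockdown, at 560.4 to 659.8, against 418 to 528 (log2 difference 0.44, SE 0.069, adjusted p = 4.68e-06), and with quantile normalization 2 members were higher.

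Knockdown of circRMST moved members in both directions. Of 41 tested, 15 were higher, 8 lower and 18 did not pass, against 27.8% of all 19068 genes higher and 25.9% lower. The median log2 change was 0.17 for the members and 0.0015 for all genes. With both shRNAs alone 9 were higher (19.6% of all genes) and 5 lower (17.4%). The counts with each shRNA alone are not far from the shares of all genes, and the counts on average depend on the scaling: with equal library totals, which set the median of all genes to -0.14, 10 members were higher and 10 lower, and without shGFP replicate 2 the number lower was 5. The shGFP libraries also held more low-level reads, since 82.4% and 85.6% of 1548 genes without a read in the siRNA table had a read there, against 14.7% to 20.5% in the circRMST shRNA libraries. Of the 8 lower members, IRF7 alone lay within the excess that 99% of those genes stayed under, 38.7 normalized counts. That value need not bound the excess of expressed genes. The part of these reads in the other 7 lower calls was not tested.

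**Figure D4:**
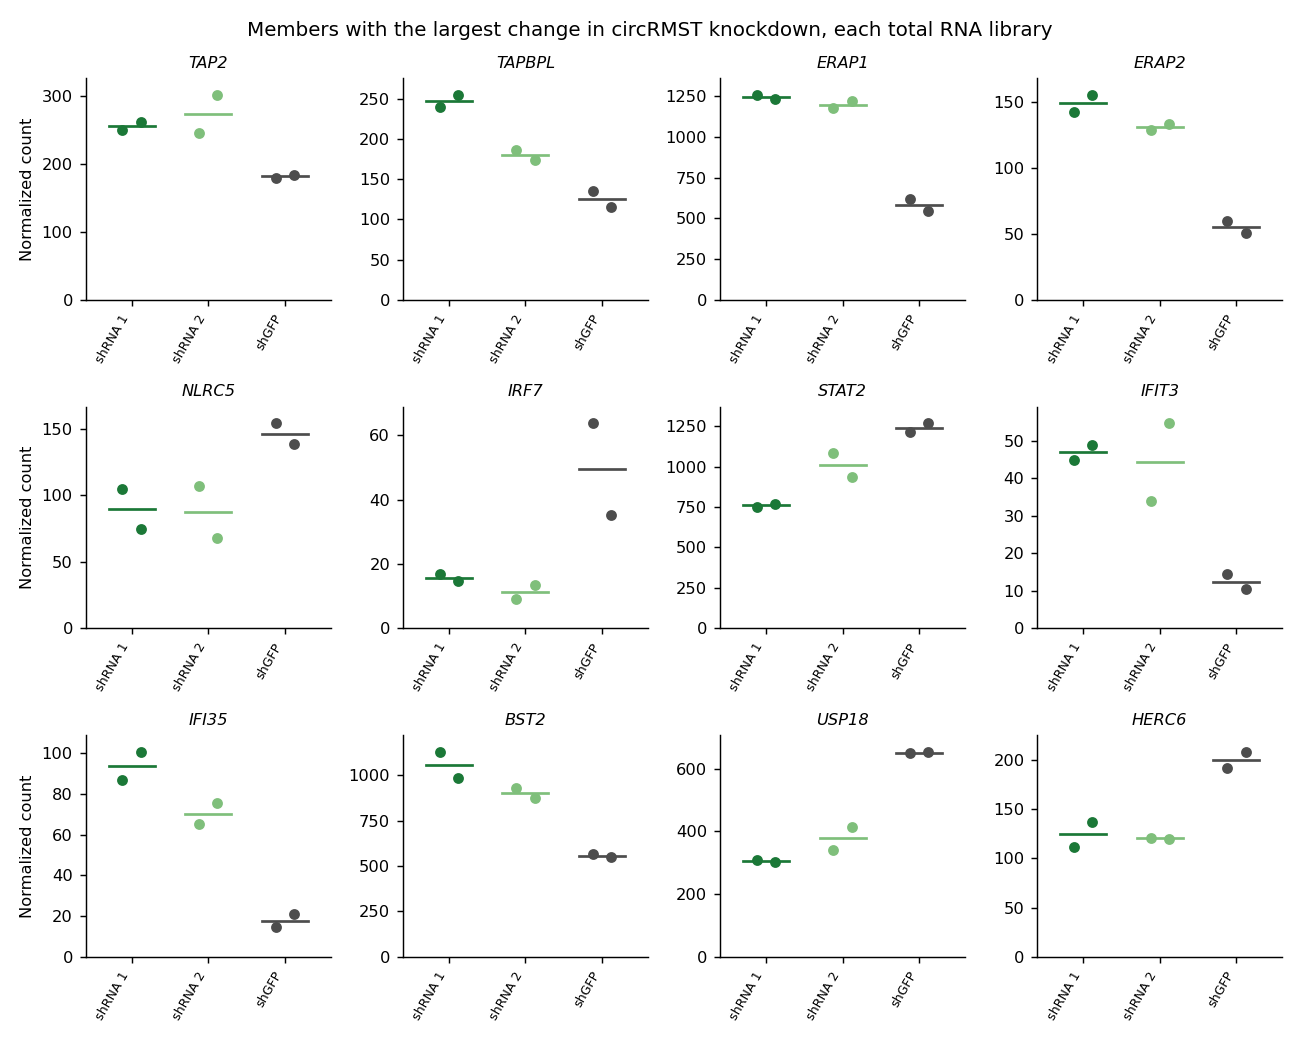
Normalized counts (y axis, from 0) in each total RNA library of circRMST shRNA 1, circRMST shRNA 2 and shGFP (x axis) of the 12 members with the largest change among those that passed with each shRNA in the same direction. Points are libraries and bars group means; TAP2, TAPBPL, ERAP1, ERAP2, IFIT3, IFI35 and BST2 are higher and NLRC5, IRF7, STAT2, USP18 and HERC6 lower in every circRMST shRNA library.

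The higher members included peptide trimming and loading genes. ERAP1 had 1258 and 1233 normalized counts with circRMST shRNA 1 and 1179 and 1218 with circRMST shRNA 2, against 619 and 544 with shGFP (2.10-fold, log2 change 1.07, SE 0.079, adjusted p = 6.39e-11). ERAP2 had 142 and 155 normalized counts with circRMST shRNA 1 and 129 and 133 with circRMST shRNA 2, against 59.6 and 50.3 with shGFP (2.52-fold, log2 change 1.33, SE 0.20, adjusted p = 5.49e-06). In both genes all 4 circRMST shRNA libraries stood far above both shGFP libraries. Whether counting used strand in the total RNA table is not given in the sources used here. TAPBPL had 239.9 and 255 normalized counts with circRMST shRNA 1 and 187 and 174 with circRMST shRNA 2, against 136 and 115 with shGFP (log2 change 0.75, SE 0.16, adjusted p = 0.000266). TAP2 had 249 and 262 normalized counts with circRMST shRNA 1 and 245 and 302 with circRMST shRNA 2, against 179 and 184 with shGFP (log2 change 0.54, SE 0.14, adjusted p = 0.00228). Knockdown and control did not overlap in either. TAP1, TAPBP and the 3 immunoproteasome subunits did not pass on average; PSMB9 was at 33.3 to 49.2 with circRMST shRNAs, against 51.4 and 83.5 with shGFP (log2 change -0.71, SE 0.31, adjusted p = 0.0549). B2M passed with a small change (0.17, SE 0.049, adjusted p = 0.00598) and overlapping groups, and did not pass with equal totals or without shGFP replicate 2. The heavy chains HLA-B, HLA-C, HLA-E and HLA-F were at 0 to 10.8 normalized counts with circRMST shRNAs, against 4.75 to 29.8 with shGFP. They were not tested. Their shGFP values lie under the excess of 38.7 normalized counts described above, and the part of low-level reads in this difference was not tested.

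Of the antiviral genes, IFI35, which binds its partner NMI and takes part in innate signalling, had 86.9 and 101 normalized counts with circRMST shRNA 1 and 65.2 and 75.4 with circRMST shRNA 2, against 14.4 and 20.9 with shGFP (4.47-fold, log2 change 2.16, SE 0.29, adjusted p = 1.18e-06). IFIT3, which stabilises IFIT1, had 45.0 and 48.9 normalized counts with circRMST shRNA 1 and 34.0 and 54.7 with circRMST shRNA 2, against 14.4 and 10.4 with shGFP (3.47-fold, log2 change 1.79, SE 0.37, adjusted p = 0.000257). BST2 had 1130.1 and 987 normalized counts with circRMST shRNA 1 and 929 and 876 with circRMST shRNA 2, against 564 and 549.6 with shGFP (log2 change 0.81, SE 0.084, adjusted p = 2.31e-08). In all 3 each circRMST shRNA library exceeded both shGFP libraries. IFIT1, IFIT2 and IFIT5 passed as well (log2 change 0.57, SE 0.24, 0.67, SE 0.23 and 0.25, SE 0.10, adjusted p = 0.047, 0.0197 and 0.0365), but none of these passed with equal totals or without shGFP replicate 2. PARP14 was at 2345 to 2728 with circRMST shRNAs, against 1994 and 1812 with shGFP (log2 change 0.42, SE 0.061, adjusted p = 3.34e-06), and DTX3L at 1294 to 1713, against 1162 and 1136 with shGFP (0.41, SE 0.07, adjusted p = 3.09e-05). Their partner PARP9 passed on average (0.33, SE 0.11, adjusted p = 0.0128) with overlapping groups, and not with equal totals. ISG15 (0.57, SE 0.17, adjusted p = 0.00584) passed with circRMST shRNA 1 and not with shRNA 2 alone, and not without shGFP replicate 1.

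Of 41 members tested 8 were lower, beside 25.9% of all genes, and the groups by role are too small to read a pattern from. The 8 lower members were 3 of the 6 tested transcription regulators (NLRC5, IRF7 and STAT2) and 5 others. These were 3 of the 5 genes of ISG15 and ubiquitin ligation (USP18, HERC6 and UBE2L6), the kinase EIF2AK2 and the RNA sensor IFIH1. USP18 had 310.0 and 303 normalized counts with circRMST shRNA 1 and 342 and 415 with circRMST shRNA 2, against 649 and 655 with shGFP (log2 change -0.94, SE 0.11, adjusted p = 1.28e-07). STAT2 had 752 and 767 normalized counts with circRMST shRNA 1 and 1083 and 933 with circRMST shRNA 2, against 1214 and 1268 with shGFP (log2 change -0.51, SE 0.08, adjusted p = 1.07e-05). HERC6 had 112 and 137 normalized counts with circRMST shRNA 1 and 121 and 119.8 with circRMST shRNA 2, against 192 and 209 with shGFP (log2 change -0.71, SE 0.17, adjusted p = 0.00127). All circRMST shRNA libraries lay below both shGFP libraries in these 3. NLRC5 had 105 and 74.3 normalized counts with circRMST shRNA 1 and 107 and 68.2 with circRMST shRNA 2, against 154 and 139 with shGFP (log2 change -0.75, SE 0.22, adjusted p = 0.00682). IRF7 had 16.8 and 14.7 normalized counts with circRMST shRNA 1 and 9.19 and 13.4 with circRMST shRNA 2, against 63.7 and 35.1 with shGFP (3.40-fold, log2 change -1.77, SE 0.44, adjusted p = 0.00158). Neither of these calls held in every fit: NLRC5 did not pass without either shGFP library, and IRF7 not without shGFP replicate 1 (adjusted p = 0.0819). UBE2L6 (-0.50, SE 0.17, adjusted p = 0.0158), EIF2AK2 (-0.27, SE 0.056, adjusted p = 0.00023) and IFIH1 (-0.35, SE 0.15, adjusted p = 0.048) were lower on average but not with each shRNA, and IFIH1 lost its call under 10 alternatives.

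Between the circRMST shRNAs, 2 members were higher and 6 lower with shRNA 1 than with shRNA 2, against 10.9% and 8.2% of all genes. PSMB8 had 174 and 141 normalized counts with circRMST shRNA 1 and 79.0 and 80.6 with circRMST shRNA 2, against 92.5 and 106 with shGFP (log2 difference between shRNAs 0.96, SE 0.23, adjusted p = 0.00399), so that shRNA 1 lay above and shRNA 2 below shGFP. EIF2AK2 had 3913 and 4512 normalized counts with circRMST shRNA 1 and 6061 and 5954 with circRMST shRNA 2, against 5992 and 6165 with shGFP (log2 difference -0.52, SE 0.065, adjusted p = 3.13e-06), low with shRNA 1 and within the shGFP spread with shRNA 2 apart from 1 library just below it. ISG15 (0.60, SE 0.19) was the other higher member, and STAT2 (-0.40, SE 0.092) had the next largest difference among the lower ones. Of these 8 calls 1 held under every alternative.

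Set beside each other, the arms used different controls, RNA and delivery, so levels are not compared across them. Among the 37 members tested in both tables, 12 were higher in circRMST knockdown and lower in SOX2 knockdown: B2M, BST2, DTX3L, ERAP1, ERAP2, IFI35, IFIT1, ISG15, PARP14, PARP9, TAP2 and TAPBPL. These are 12 of the 14 members higher in circRMST knockdown in that set and 12 of the 30 lower in SOX2 knockdown. Of all genes, 15846 were tested in both tables, and 11.2% of them were called in that way. Since 30 of the 37 members were lower in SOX2 knockdown, 12 of 14 is near the share of all members. A further 6, EIF2AK2, IFIH1, NLRC5, STAT2, UBE2L6 and USP18, were lower in both, as were 7.89% of all genes. ERAP2, for example, changed by 1.33 in circRMST and -0.91 in SOX2 knockdown, and NLRC5 by -0.75 and -1.01. Of the 3 members with the largest SOX2 falls, OAS1 and PSMB9 did not pass in circRMST knockdown (log2 change 0.59, SE 0.48, adjusted p = 0.313 and -0.71, SE 0.31, adjusted p = 0.0549), while IFIH1 was lower in both. PSMB9 and IFIH1 lay on either side of the threshold in circRMST knockdown. PSMB9 passed as lower under 6 of 17 alternatives, and IFIH1 lost its call under 10 of 18.

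**Figure D5:**
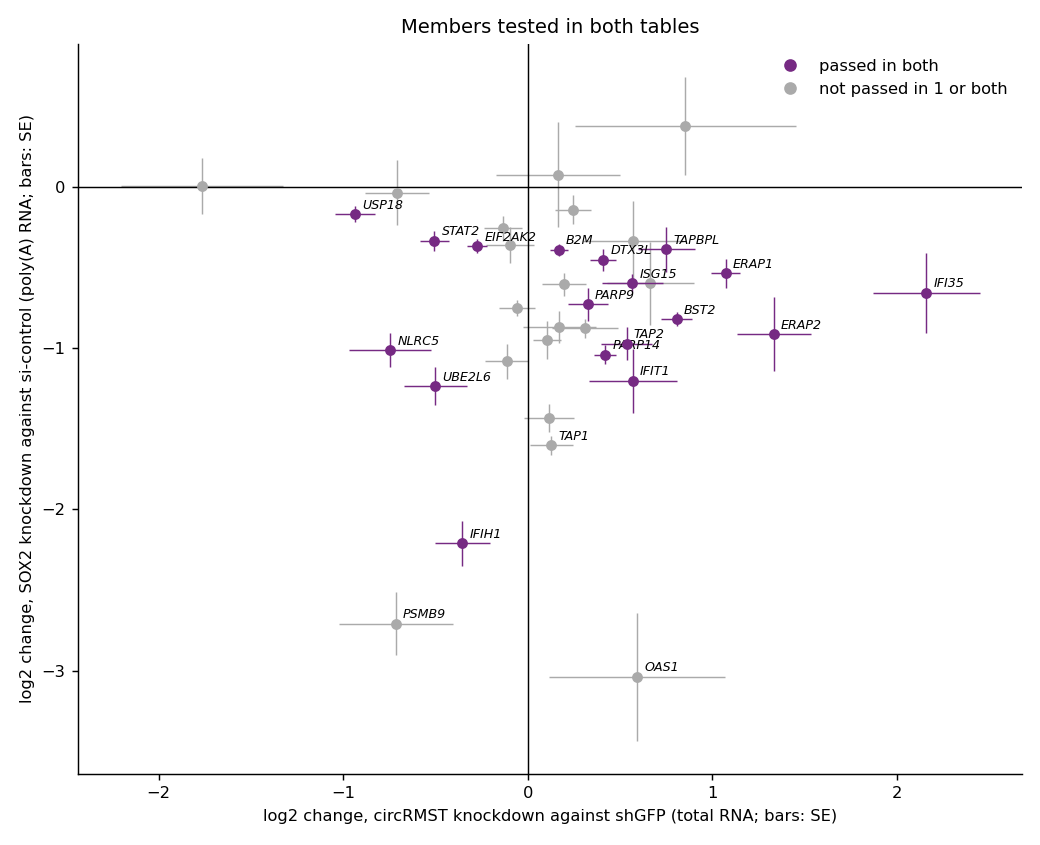
Log2 change in circRMST knockdown against shGFP (x axis) and in SOX2 knockdown against si-control (y axis) for the 37 members tested in both tables; bars are SE and purple points passed in both. The purple points at the lower right are the 12 members higher in circRMST and lower in SOX2 knockdown, and those at the lower left the 6 lower in both.

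Other genes of the pathway were read from lists apart from the members. Of all genes, 28.7% were lower and 27.6% higher in SOX2 knockdown. In NKX2-1 knockdown 21.4% were lower and 18.5% higher, and in circRMST knockdown 25.9% were lower and 27.8% higher. Many counts in the lists of 10 tested genes or fewer lie near these shares. None of 9 interferon ligand genes reached a mean of 10 in either table. Of 7 tested receptor and kinase genes, 4 were lower and 2 higher in SOX2 knockdown, by small amounts: IFNAR2, a receptor chain for type I interferon, by -0.33, SE 0.082, adjusted p = 0.00112, and TYK2, a receptor kinase, by 0.28, SE 0.05, adjusted p = 3.73e-05. In NKX2-1 knockdown 3 of the 7 were lower and 1 higher, with JAK1 at -0.31, SE 0.043, adjusted p = 1.76e-06. In circRMST knockdown 4 of the 7 were higher and 1 lower, with the type I receptor chain IFNAR1 at 0.59, SE 0.062, adjusted p = 2.44e-08 and the gamma receptor chain IFNGR1 at 0.53, SE 0.07, adjusted p = 1.17e-06.

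Of 7 tested sensors and adaptors, 3 were lower and 1 higher in SOX2 knockdown, among them IFI16, a DNA sensor (-0.61, SE 0.15, adjusted p = 0.000771), RIGI, a sensor of RNA ends (-0.44, SE 0.12, adjusted p = 0.00197), and MAVS, the adaptor on mitochondria (-0.28, SE 0.042, adjusted p = 1.84e-06). In NKX2-1 knockdown 3 were lower and 0 higher, with IRF3 at -0.21, SE 0.056, adjusted p = 0.00348. In circRMST knockdown STING1, the adaptor of cytosolic DNA sensing, was lower (-0.51, SE 0.14, adjusted p = 0.00442) and TBK1, the kinase downstream, higher (0.50, SE 0.057, adjusted p = 1.01e-07).

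Of the 5 tested negative regulators 1 was lower and 1 higher in SOX2 knockdown. SOCS1, a feedback inhibitor of JAK kinases, had the largest change among them, averaging 32.5 normalized counts with SOX2 siRNAs and 180.3 in si-control (-2.45, SE 0.14, adjusted p = 4.25e-14). It differed from NKX2-1 knockdown by -2.45, SE 0.13, adjusted p = 8.80e-15, where it averaged 182. SOCS3, a related inhibitor, was lower in NKX2-1 knockdown, averaging 442 with NKX2-1 siRNAs and 807 in si-control (-0.88, SE 0.062, adjusted p = 5.69e-12), and higher in SOX2 than in NKX2-1 knockdown (0.90, SE 0.057, adjusted p = 2.59e-13).

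Among 25 tested other interferon-induced genes, 18 were lower and 4 higher in SOX2 knockdown, against 28.7% and 27.6% of all genes. In NKX2-1 knockdown 14 were lower and 1 higher, against 21.4% and 18.5%. SAMD9L, the neighbour and relative of SAMD9, averaged 6.44 with SOX2 siRNAs and 40.8 in si-control (-2.72, SE 0.42, adjusted p = 3.58e-06) and 12.7 with NKX2-1 siRNAs (-1.59, SE 0.42, adjusted p = 0.00342). IFI27 averaged 8.82 with SOX2 siRNAs and 27.9 in si-control (-1.65, SE 0.31, adjusted p = 5.21e-05). IFITM3, which blocks virus entry from endosomes, averaged 325 with NKX2-1 siRNAs and 472 in si-control (-0.54, SE 0.077, adjusted p = 2.51e-06). In circRMST knockdown 10 of 27 were higher and 4 lower, against 27.8% and 25.9% of all genes, with SAMD9L averaging 83.5 with circRMST shRNAs and 17.3 with shGFP (2.20, SE 0.28, adjusted p = 5.36e-07) and TRIM5, a retrovirus restriction factor, 56.6 with circRMST shRNAs and 141 with shGFP (-1.31, SE 0.25, adjusted p = 0.000124).

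Of 10 tested further class I pathway genes, 5 were lower and 2 higher in SOX2 knockdown, 6 lower and 1 higher in NKX2-1 knockdown, and 2 lower and 7 higher in circRMST knockdown. PDIA3, an oxidoreductase of the loading complex, averaged 9016 with SOX2 siRNAs and 12489 in si-control (-0.47, SE 0.032, adjusted p = 8.66e-13), and 28209 with circRMST shRNAs and 14104 with shGFP in the total RNA table (0.97, SE 0.043, adjusted p = 1.17e-14). Calreticulin, CALR, the chaperone of the same complex, averaged 12112 with circRMST shRNAs and 26668 with shGFP (-1.15, SE 0.047, adjusted p = 2.26e-15), and calnexin, CANX, 65940.1 with circRMST shRNAs and 35842 with shGFP (0.87, SE 0.044, adjusted p = 8.75e-14). SPPL2A, an intramembrane protease, averaged 1091 with NKX2-1 siRNAs and 759 in si-control (0.51, SE 0.054, adjusted p = 1.19e-08).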

How the data were processed

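The measurements are RNA-seq of 17 of the series' 27 samples; the 10 ChIP-seq and input samples were not analysed here. Total RNA libraries used a stranded kit with 1000 ng of RNA and poly(A) libraries a kit that does not mark strand with 500 ng, read as 150-base pairs, per the labels' protocols. The submitters' processing notes name cutadapt 2.5, STAR 2.5.2b, DESeq2 and hg38; the counting program and annotation are not given in the sources used here. The authors deposited 1 table of normalized counts, a signal per gene, for each arm. In every library 100% of the values were whole multiples of 1 read within 0.05 reads, so that whole reads could be recovered. Rows with no Ensembl gene ID (5.84e-05% and 2.20e-05% of the summed values) and copies on the pseudoautosomal part of the Y chromosome were left out, and symbols were matched for 98.5% of the IDs in both tables.

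Genes with a mean of at least 10 (19068 and 16750) were tested with limma 3.58.1 (R 4.3.3) on log2(normalized count + 1), with group means, a trend and all libraries of a table. Each knockdown is the average of its 2 reagents against the control. edgeR 4.0.16 on the recovered reads called 5025 genes higher and 5175 lower in circRMST knockdown, 4552 and 4724 in SOX2 knockdown, and 3185 and 3525 in NKX2-1 knockdown, against limma's 5294 and 4936, 4620 and 4814, and 3092 and 3592. DESeq2 1.42.0, other pseudocounts (0.5 and 5), mean minimums and scalings, a replicate block and leaving out each replicate were alternatives, and library totals made equal once mitochondrial and 7SL-type genes were removed was added after seeing the data. The fit was tested on simulated data. No replicate pair agreed within sampling noise.

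Values of every library are given for up to 12 members per knockdown that passed on average and with each reagent and did not overlap with the control, largest change first, then for members that differed between reagents or knockdowns, and for up to 3 others per role. Of each list of other pathway genes up to 3 that passed with the largest change are named. The 47 members and all lists were chosen with earlier results of these data known. Promoter letters were read from RefSeq's windows (Python 3.11.15).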

Additional observations from a re-analysis of the deposited data

How the results depend on the processing

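No member that passed changed direction with a call under any alternative. Of the calls, 25 of 30 in SOX2 knockdown, 14 of 19 in NKX2-1 knockdown, 13 of 23 in circRMST knockdown and 27 of 30 between SOX2 and NKX2-1 knockdown held in every fit. Of the calls between reagents, 6 of 9 held for NKX2-1, 5 of 11 for SOX2 and 1 of 8 for circRMST; each rests on 2 libraries against 2. Genes under a mean of 10 were tested in the fit with no filter alone.

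The sources used here do not state whether the replicate numbers pair the samples. Deviations of same-numbered libraries correlated at -0.13 to 0.10 over 6 pairs in the total RNA table and at -0.35 to 0.042 over 20 pairs in the poly(A) table. In groups of 2 libraries the deviations mirror each other, so these values cannot exclude pairing. The -0.35 is also 0.35 between NKX2-1 siRNA 1 replicate 2 and SOX2 siRNA 1 replicate 1, the poly(A) libraries with the most reads (50098797 and 30742570). With the replicate block, 28 members were lower in SOX2 knockdown, 16 in NKX2-1 knockdown, and 15 higher and 7 lower in circRMST knockdown.

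With no filter on the mean, 10409 genes were lower in circRMST knockdown. The same setting gave 848 genes higher and 477 lower, and 1 member each way, between the circRMST shRNAs, and 814 genes higher, 0 members higher and 6 lower between the SOX2 siRNAs. Totals made equal once mitochondrial and 7SL-type genes were removed gave 2419 genes lower and 1 member higher between the circRMST shRNAs. Between the SOX2 siRNAs DESeq2 called 0 members higher, and a fit of only those groups 0 members and 828 genes higher. Equal totals gave 1 member higher in NKX2-1 knockdown. Quantile normalization gave 1 there too, and 2 members higher in SOX2 than in NKX2-1 knockdown. The cause was not tested.

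Leaving out 1 replicate at a time gave 5 to 8 members lower and 13 to 14 higher in circRMST knockdown. Between the circRMST shRNAs it gave 1269 to 1869 genes higher and 866 to 1260 lower, with 1 to 2 members higher and 1 to 6 lower. Between the SOX2 siRNAs it gave 761 to 1502 genes higher and 1151 to 1786 lower, with 0 to 1 members higher and 8 to 11 lower. Between the NKX2-1 siRNAs it gave 1282 to 2228 genes higher. In SOX2 knockdown 27 to 31 members were lower, and in NKX2-1 knockdown 17 to 20.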
